A study of Mus musculus with 27 samples.

Results

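The L-type calcium channel lets calcium into heart muscle cells when their membrane depolarises. The 8 genes described here encode 3 kinds of its subunits: the pore-forming α1 subunits (Cacna1c, Cacna1s and Cacna1d), the intracellular β subunits (Cacnb1, Cacnb2 and Cacnb3) and the extracellular α2δ subunits (Cacna2d1 and Cacna2d2). They were chosen by name from the 55487 gene identifiers of the count table, and all 8 were found and passed the filter on low counts in every comparison. RNA of mouse ventricle was sequenced in 27 libraries of 7 groups. There were 5 libraries labelled KO (MBNL1 loss of function) at 7 days after knockout and 4 controls of the same time, and 4 libraries labelled KO at 14 days with 3 controls, all at postnatal day 60 (P60). A further 4 libraries were labelled Tg (MBNL1 gain of function) at postnatal day 7 (P7), beside 3 controls of that age, and 4 control libraries came from postnatal day 1 (P1). MBNL1 binds RNA and acts on splicing and on the stability of transcripts. For the strain, the sex, the knockout method, the deleted exons, the promoter of the transgene and any treatment shared by the controls, the sources used here give nothing. Nor do the labels say whether each library is an animal of its own. A p-value below therefore rests on variation among libraries, part or all of which could be technical.

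In the working heart muscle cell the pore is mainly CACNA1C (Cav1.2), whose opening triggers calcium release from the sarcoplasmic reticulum through the ryanodine receptor RYR2. CACNA1S (Cav1.1) is the pore and voltage sensor of skeletal muscle, where it works with the β subunit encoded by Cacnb1. CACNA1D (Cav1.3) opens at more negative potentials and is known from pacemaker and atrial cells. β subunits bring the pore to the cell surface and change its gating, and Cacnb2 is the main β gene of the adult heart. α2δ subunits raise the surface level of the channel, and Cacna2d1 is the main one of ventricle and of skeletal muscle.

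In the GENCODE M21 annotation of GRCm38 all 8 are protein-coding. Cacna1c (ENSMUSG00000051331) lies on chromosome 6 from 118587240 to 119196418 on the minus strand. Cacna1s (ENSMUSG00000026407) lies on chromosome 1 from 136052750 to 136119822 on the plus strand. Cacna1d (ENSMUSG00000015968) lies on chromosome 14 from 30039939 to 30491455, minus strand. Cacnb1 (ENSMUSG00000020882) is on chromosome 11 from 98001508 to 98023034, minus strand. Cacnb2 (ENSMUSG00000057914) is on chromosome 2 from 14603088 to 14987908, plus strand. Cacnb3 (ENSMUSG00000003352) is on chromosome 15 from 98630840 to 98644529, plus strand. Cacna2d1 (ENSMUSG00000040118) spans 15934691 to 16374511 of chromosome 5, plus strand, and Cacna2d2 (ENSMUSG00000010066) spans 107399612 to 107529343 of chromosome 9, plus strand. Each lies on a chromosome of its own, so none overlaps another. Each value is a gene total and does not separate splice forms. The strand setting of the counting was not given, so reads of overlapping antisense genes cannot be told apart. Such partners carried few reads: the antisense gene over Cacna1s had 1 count in all 27 libraries, and Chdh, which shares 589 exon bases with Cacna1d, had 160.

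The sequences upstream of Cacna1s and Cacnb1 are shown because at 7 days these genes moved furthest down and furthest up of the 8 in the libraries labelled KO, although both are known as skeletal muscle subunits. Each is the 250 bases before an annotated start in RefSeq on GRCm38.p6, written in the direction of the gene. Capitals mark E-boxes (CANNTG), the letters bound by basic helix-loop-helix factors such as MYOD, and MCAT elements (GGAATG), the letters bound by TEAD factors, searched on both strands. Cacna1s has a single window (chr1:136052561-136052810, plus strand), and Cacnb1 has an upstream one (chr11:98022628-98022877, minus strand) and a downstream one (chr11:98018373-98018622, minus strand). Both Cacnb1 windows and the end of the Cacna1s window lie inside the longer GENCODE M21 gene bounds given above.
Cacna1s: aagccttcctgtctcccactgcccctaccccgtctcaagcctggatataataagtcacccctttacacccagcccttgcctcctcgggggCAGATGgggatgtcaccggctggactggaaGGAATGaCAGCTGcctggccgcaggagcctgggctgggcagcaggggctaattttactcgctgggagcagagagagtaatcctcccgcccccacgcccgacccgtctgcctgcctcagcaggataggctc
Cacnb1, upstream start: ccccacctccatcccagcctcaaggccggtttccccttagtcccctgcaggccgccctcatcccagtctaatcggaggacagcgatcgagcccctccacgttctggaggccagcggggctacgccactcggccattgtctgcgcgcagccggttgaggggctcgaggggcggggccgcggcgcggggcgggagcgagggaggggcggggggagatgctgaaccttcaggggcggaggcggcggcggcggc
Cacnb1, downstream start: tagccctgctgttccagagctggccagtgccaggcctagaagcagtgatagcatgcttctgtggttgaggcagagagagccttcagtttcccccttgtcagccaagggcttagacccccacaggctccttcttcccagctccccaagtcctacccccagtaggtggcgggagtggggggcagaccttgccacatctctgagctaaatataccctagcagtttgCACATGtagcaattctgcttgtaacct
The Cacna1s window held 2 E-boxes and 1 MCAT element, and the capitals of the MCAT element and of the second E-box stand 1 base apart without overlap. The upstream Cacnb1 window held 0 of either, and the downstream one held 1 E-box and 0 MCAT elements. Of 32851 RefSeq windows of the same length, 66.2% held an E-box and 12.6% an MCAT element. These matches are letters in a window and show no binding.

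Total counts ran from 21929347 to 25675115 per library. CPM, the unit used below, is a gene's count as a share of the library's total. A count of 0 still allows 3 counts, or 0.137 CPM in the smallest library, from counting error alone. Levels below are CPM scaled by TMM, edgeR's correction for composition. In the libraries labelled KO at 7 days Mbnl1 stood at 219, 103, 167, 115 and 168 CPM, against 153, 146, 149 and 147 CPM in their controls (log2 fold change 0.05 ± 0.20, SE, adjusted p = 0.86, edgeR). At 14 days it stood at 137, 135, 115 and 121 CPM in libraries labelled KO, against 170, 159 and 151 CPM in controls (−0.34 ± 0.09, adjusted p = 0.012, edgeR). The gene total of Mbnl1 thus did not fall in the libraries labelled KO at 7 days, and since the deleted exons were not given, a total over all exons may not check the deletion. A separate mark of these libraries was Esr1, the oestrogen receptor gene, with 195 to 1893 CPM in those labelled KO at 7 days and 1651 to 1955 CPM in those labelled KO at 14 days, against 0.487 to 1.498 CPM in the P60 controls. Libraries 1, 3 and 5 labelled KO at 7 days had the lower Esr1 values, 234, 650 and 195 CPM, against 1893 and 1653 CPM in libraries 2 and 4. The libraries labelled KO thus differed from their controls in more than the state of Mbnl1. In the KO comparisons below, loss of MBNL1 and whatever brought these Esr1 reads cannot be told apart. Mbnl1 stood at 2935 to 4080 CPM in the Tg libraries, against 96.9 to 105 CPM in the P7 controls.

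Per kb of exon, the adult control ventricle held mostly Cacna1c, Cacnb2 and Cacna2d1 within the classes. The length is that of all annotated exons of a gene, whether or not they were expressed, so rankings between genes on this scale depend on it. In the 7-day P60 controls Cacna1c averaged 16.4 CPM per kb, Cacna1s 1.80 and Cacna1d 0.262. The β genes averaged 2.23 (Cacnb1), 6.77 (Cacnb2) and 1.63 CPM per kb (Cacnb3) there. Cacna2d1 averaged 17.0 CPM per kb and Cacna2d2 0.708. Cacna1s thus took 9.74% ± 0.53 of the α1 class in those controls (SD, n = 4) and 13.8% ± 2.5 in the 14-day controls (SD, n = 3).

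**Figure D1:**
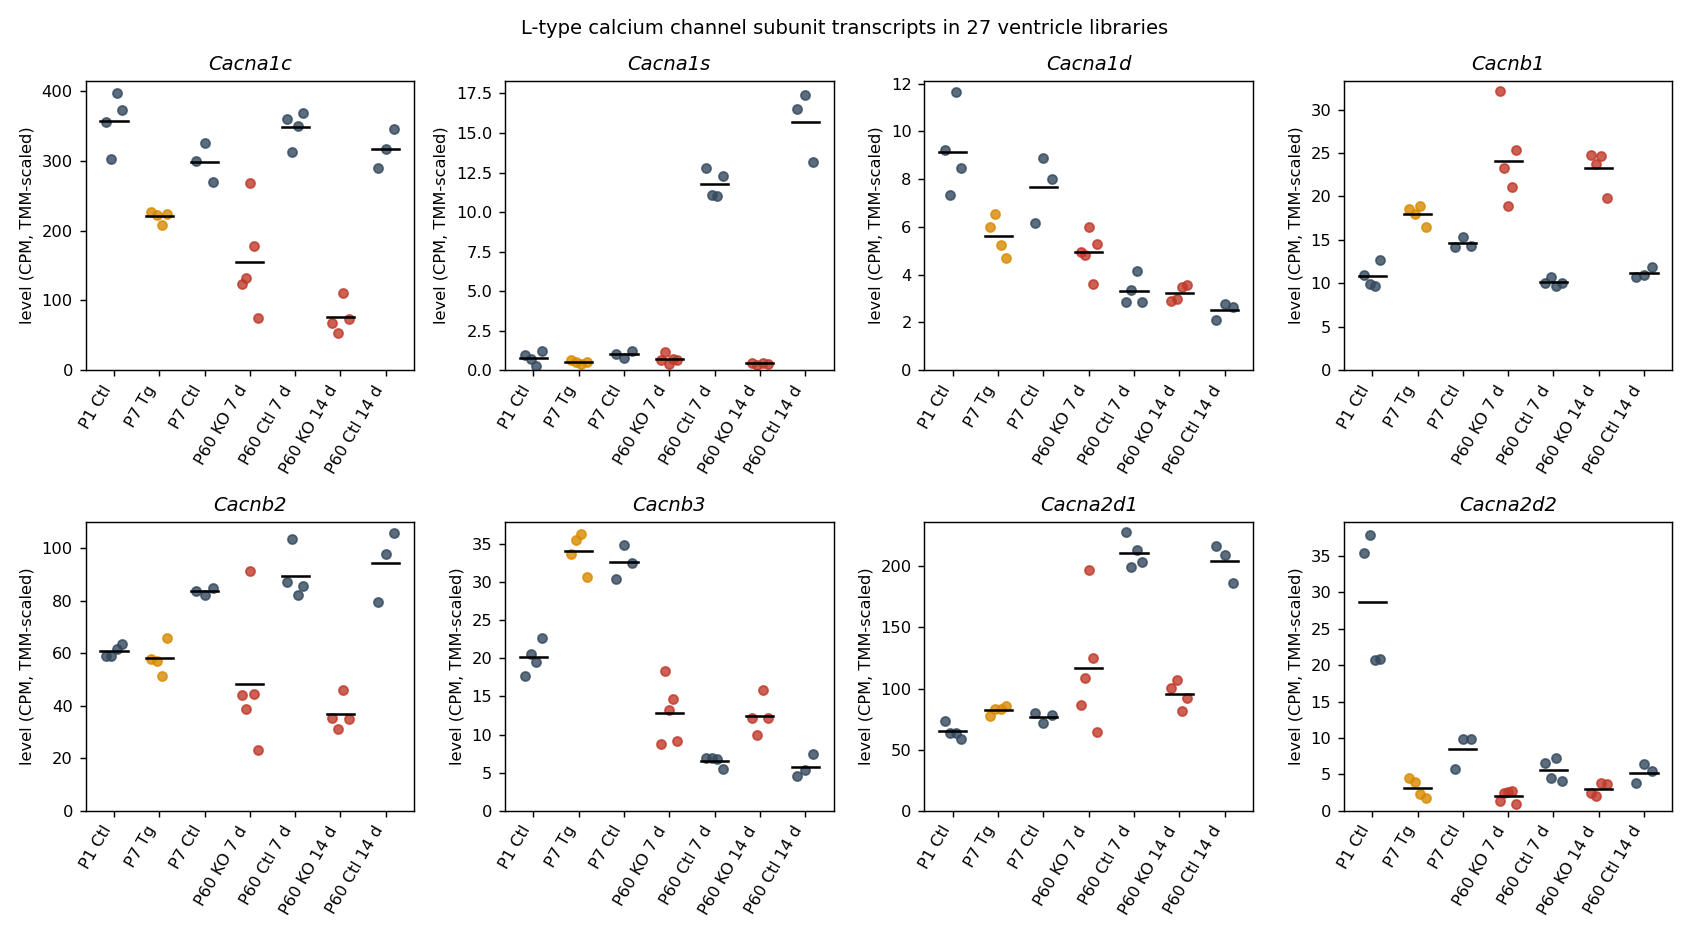
Level of each subunit gene in every library, in TMM-scaled CPM on linear axes that start at 0; points are libraries, bars are group means, and colours mark Tg (orange), KO (red) and control (dark) labels. Cacna1s is near 0 outside the P60 controls, where it averaged 11.8 and 15.7 CPM.

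The first comparison asks how the subunits stand 7 days after knockout. All 8 genes passed the test (adjusted p under 0.05, edgeR's quasi-likelihood test, Benjamini-Hochberg over 15167 genes), 3 higher and 5 lower in the libraries labelled KO. Of all tested genes 50.7% passed, 26.4% higher and 24.3% lower, so a call by itself was common. The 3 that rose were Cacnb1, Cacnb3 and Cacna1d, and the 5 that fell were Cacna1s, Cacna2d2, Cacna1c, Cacnb2 and Cacna2d1. At 14 days 7 of the 8 passed, 2 higher and 5 lower, in a comparison in which 44.2% of all genes did, 21.8% higher and 22.4% lower. The median log2 fold change of the 8 was −0.88 at 7 days and −0.96 at 14 days, beside 0.03 and 0.01 over all tested genes. In bulk tissue, fewer cells of a type and less RNA per cell cannot be told apart.

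Cacna1c, the pore of the cardiac channel, read 124, 132, 268, 178 and 74.6 CPM in the libraries labelled KO at 7 days, against 360, 313, 350 and 369 CPM in controls. With TMM the groups did not overlap, and library 3 labelled KO came closest to the controls while library 5 was lowest. The log2 fold change was −1.17 ± 0.29 (SE, adjusted p = 0.00648, edgeR). At 14 days Cacna1c read 67.0, 53.6, 111 and 72.6 CPM in libraries labelled KO, against 289, 316 and 345 CPM in controls. All 4 lay far below the controls, and the log2 fold change was −2.07 ± 0.21 (adjusted p = 2.81e-05, edgeR).

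Cacna1s, the skeletal muscle pore, showed the largest change of the 8 at both times. It read 0.630, 1.16, 0.406, 0.687 and 0.633 CPM in the libraries labelled KO at 7 days, against 12.8, 11.1, 11.0 and 12.3 CPM in controls. Those levels rest on 88 counts over 5 libraries labelled KO and 814 counts over 4 controls. The log2 fold change was −4.06 ± 0.23 (adjusted p = 2.26e-06, edgeR), and 0.0791% of the tested genes had a lower one. At 14 days it read 0.458, 0.346, 0.453 and 0.418 CPM in libraries labelled KO, against 16.5, 17.4 and 13.2 CPM in controls, from 39 and 791 counts. No library labelled KO came near a control at either time, and library 3 labelled KO at 7 days, the nearest to the controls in Cacna1c, was the lowest of its group in Cacna1s. At 14 days the log2 fold change was −5.22 ± 0.18 (adjusted p = 1.66e-07, edgeR), with 0.0267% of the tested genes lower.

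Cacna1d, the low-threshold pore, moved the other way at 7 days with a small margin. It read 4.96, 4.83, 6.01, 3.60 and 5.26 CPM in libraries labelled KO, against 2.86, 3.35, 4.16 and 2.84 CPM in controls. The ranges overlapped through library 4 labelled KO and control 3, and the log2 fold change was 0.57 ± 0.19 (adjusted p = 0.0263, edgeR). The call was lost when library 3 labelled KO or any of controls 1, 2 and 4 was left out, with adjusted p up to 0.0709 (edgeR). At 14 days the libraries labelled KO spanned 2.88 to 3.55 CPM, against 2.09 to 2.76 CPM in controls, without overlap, but the gene did not pass (log2 fold change 0.36 ± 0.19, adjusted p = 0.153, edgeR).

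Among the β genes, Cacnb1, the skeletal muscle β subunit, rose in every library labelled KO. It read 32.2, 23.2, 18.9, 21.1 and 25.3 CPM in those of 7 days, against 9.97, 10.8, 9.71 and 9.997 CPM in controls (log2 fold change 1.25 ± 0.15, adjusted p = 9.28e-05, edgeR). At 14 days it read 24.7, 23.7, 24.6 and 19.8 CPM in libraries labelled KO, against 10.8, 10.9 and 11.9 CPM in controls (1.04 ± 0.11, adjusted p = 4.77e-05, edgeR). The groups were far apart at both times. The direction of Cacnb1 was opposite to that of Cacna1s, its partner in skeletal muscle.

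Cacnb2, the main cardiac β subunit, read 44.1, 38.8, 91.2, 44.5 and 23.0 CPM in libraries labelled KO at 7 days, against 87.0, 104, 82.3 and 85.5 CPM in controls. Library 3 labelled KO lay within the control range and the other 4 below it. The log2 fold change was −0.90 ± 0.31 (adjusted p = 0.031, edgeR), and leaving out library 1, 2 or 4 labelled KO or any 1 control took it past the threshold, with adjusted p up to 0.0816 (edgeR). At 14 days Cacnb2 read 35.5, 31.3, 45.9 and 34.8 CPM in libraries labelled KO, against 79.6, 97.8 and 106 CPM in controls. These did not overlap, and the log2 fold change was −1.36 ± 0.14 (adjusted p = 3.79e-05, edgeR).

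Cacnb3, a β subunit known from neurons and smooth muscle, read 8.73, 18.3, 13.3, 14.7 and 9.14 CPM in libraries labelled KO at 7 days, against 6.87, 6.97, 6.77 and 5.50 CPM in controls (log2 fold change 0.97 ± 0.22, adjusted p = 0.00429, edgeR). At 14 days it read 12.1, 9.91, 15.8 and 12.1 CPM in libraries labelled KO, against 4.61, 5.33 and 7.45 CPM in controls (1.09 ± 0.21, adjusted p = 0.00172, edgeR). Every library labelled KO lay above every control of its time. Libraries 1 and 5, the lowest of the 7-day libraries labelled KO in Cacnb3, were the highest of them in Cacnb1.

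Of the α2δ genes, Cacna2d1 read 86.9, 109, 197, 125 and 64.4 CPM in libraries labelled KO at 7 days, against 228, 199, 213 and 203 CPM in controls. With TMM, library 3 labelled KO again came closest to the controls without reaching them, and the log2 fold change was −0.87 ± 0.26 (adjusted p = 0.0176, edgeR). At 14 days it read 101, 107, 81.4 and 92.4 CPM in libraries labelled KO, against 217, 210 and 186 CPM in controls (−1.11 ± 0.11, adjusted p = 2.28e-05, edgeR). The spread between libraries labelled KO was wider at 7 days, with an SD of 50.6 CPM, than at 14 days, with 11.1 CPM. Cacna2d2, the minor α2δ gene of adult ventricle, read 1.34, 2.51, 2.56, 2.71 and 0.871 CPM in libraries labelled KO at 7 days, against 6.57, 4.57, 7.21 and 4.14 CPM in controls (−1.50 ± 0.32, adjusted p = 0.00316, edgeR). At 14 days its ranges touched, at 1.99 to 3.87 CPM in libraries labelled KO and 3.75 to 6.40 CPM in controls (−0.82 ± 0.27, adjusted p = 0.0318, edgeR). That call was lost without library KO6 or KO7 or without control 6 or 7, with adjusted p up to 0.135 (edgeR).

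With library sizes scaled by total counts alone, the median log2 fold change over all genes moved to 0.45 at 7 days and 0.39 at 14 days. All 8 genes kept their direction at both times, but Cacnb2 and Cacna2d1 at 7 days and Cacna2d2 at 14 days no longer passed, at log2 fold changes of −0.47, −0.44 and −0.44, and Cacna1d at 14 days did (0.73, adjusted p = 0.0119, edgeR). Of all genes, 8065 were then called higher and 1588 lower at 7 days, and 7288 higher and 1610 lower at 14 days, against 4001 higher and 3692 lower and 3272 higher and 3351 lower with TMM. Under total count scaling, library 3 labelled KO at 7 days read 279 CPM in Cacna1c, within the 249 to 282 CPM of its controls. It read 205 CPM in Cacna2d1 and 95.1 CPM in Cacnb2, above all controls (155 to 171 and 64.6 to 82.6 CPM).

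**Figure D2:**
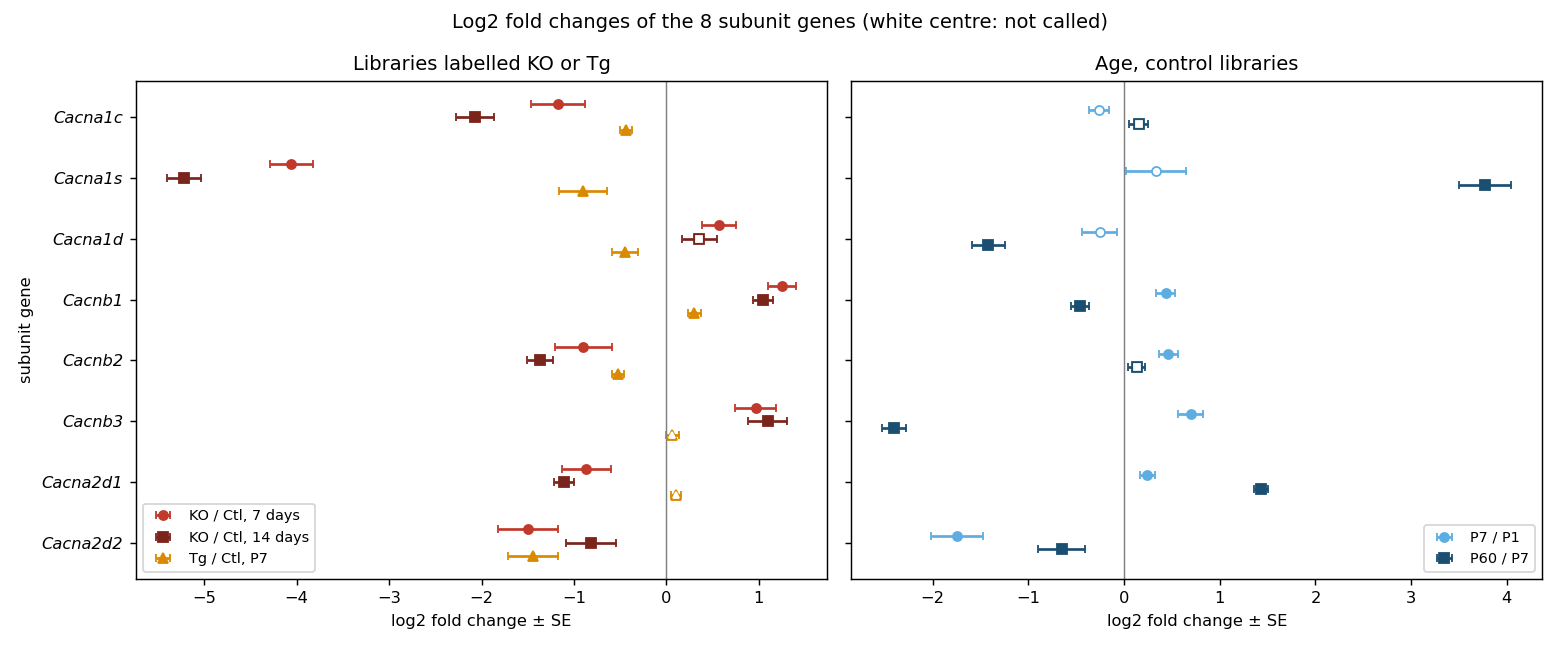
Log2 fold change ± SE of the 8 genes from edgeR, with libraries labelled KO or Tg over their controls on the left and control ages P7 over P1 and P60 over P7 on the right; a white centre marks a gene that did not pass the test. Cacna1s has the lowest values on the left, −4.06 and −5.22, and the highest on the right, 3.77 from P7 to P60.

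Whether the response differed between the times was tested as an interaction over the 16 P60 libraries. No gene passed (0% of 15951, with 1662 genes at an unadjusted p under 0.05 in edgeR and 147 called by DESeq2), and none of the 8 did. Cacna1s had an interaction of −1.14 ± 0.32 on the log2 scale (unadjusted p = 0.00253, adjusted p = 0.213, edgeR) and Cacna1c one of −0.87 ± 0.41 (unadjusted p = 0.0466, adjusted p = 0.472, edgeR), both lower at 14 days. For the other 6 the adjusted p ran from 0.617 to 0.896 (edgeR). A p that misses the threshold does not show that the responses were alike.

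Ratios of 2 genes within a library do not depend on how libraries are scaled, and they describe the make-up of each class. In the libraries labelled KO at 7 days the Cacnb1/Cacnb2 ratio of counts was 0.729, 0.598, 0.207, 0.473 and 1.10, against 0.115, 0.104, 0.118 and 0.117 in controls. The groups did not overlap, and the difference in mean log2 ratio was 2.26 (two-sided exact permutation test, p = 0.0159, the smallest that 5 against 4 libraries can give, adjusted p = 0.0357 over 30 tests). Cacnb3/Cacnb2 differed by 1.95, Cacna1d/Cacna1c by 1.87 and Cacna1s/Cacna1c by −2.86, each with the same exact p and no overlap. Cacna2d2/Cacna2d1 differed by −0.63 with overlapping values (exact permutation p = 0.0794, adjusted p = 0.0992). Ratios of other gene pairs were not computed, so the lack of overlap, here and in the ratios below, has no share over all pairs beside it.

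At 14 days the Cacnb1/Cacnb2 ratio of counts was 0.696, 0.758, 0.536 and 0.570 in libraries labelled KO, against 0.135, 0.112 and 0.112 in controls, a log2 difference of 2.41. Cacnb3/Cacnb2 differed by 2.48, Cacna1d/Cacna1c by 2.48 and Cacna1s/Cacna1c by −3.12, again without overlap. With 4 against 3 libraries the exact permutation test cannot go below p = 0.0571, the value of each of these (adjusted p = 0.0745). Cacna2d2/Cacna2d1 differed by 0.27 with overlap (exact permutation p = 0.571, adjusted p = 0.635).

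Per kb of exon, Cacnb1 was 44.8% ± 12.3 of the β class in libraries labelled KO at 7 days and 21.1% ± 0.9 in their controls (SD, n = 5 and 4). Cacnb2 was 28.9% ± 11.4 of it in those libraries labelled KO and 63.6% ± 1.6 in controls. At 14 days Cacnb1 was 46.7% ± 4.5 in libraries labelled KO and 22.5% ± 2.1 in controls (SD, n = 4 and 3), and Cacnb2 25.2% ± 1.7 and 64.5% ± 1.7. On this scale Cacnb1 had the highest mean share of the β class in libraries labelled KO at both times, and Cacnb2 in their controls. The ranking depends on the annotated exon lengths, 4529 bases for Cacnb1 and 13228 for Cacnb2. In CPM, Cacnb2 kept the higher mean in libraries labelled KO, 48.3 against 24.1 at 7 days and 36.9 against 23.2 at 14 days. Cacna1s made up 1.64% ± 0.88 of the α1 class in libraries labelled KO at 7 days and 1.71% ± 0.34 in those of 14 days, shares of controls being given above. Cacna1d took 5.81% ± 2.84 of that class in libraries labelled KO and 1.43% ± 0.31 in controls at 7 days, and 6.85% ± 1.48 and 1.12% ± 0.11 at 14 days. Cacna1c was the main gene of the α1 class in every group, with means from 85.1% to 95.2%.

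**Figure D3:**
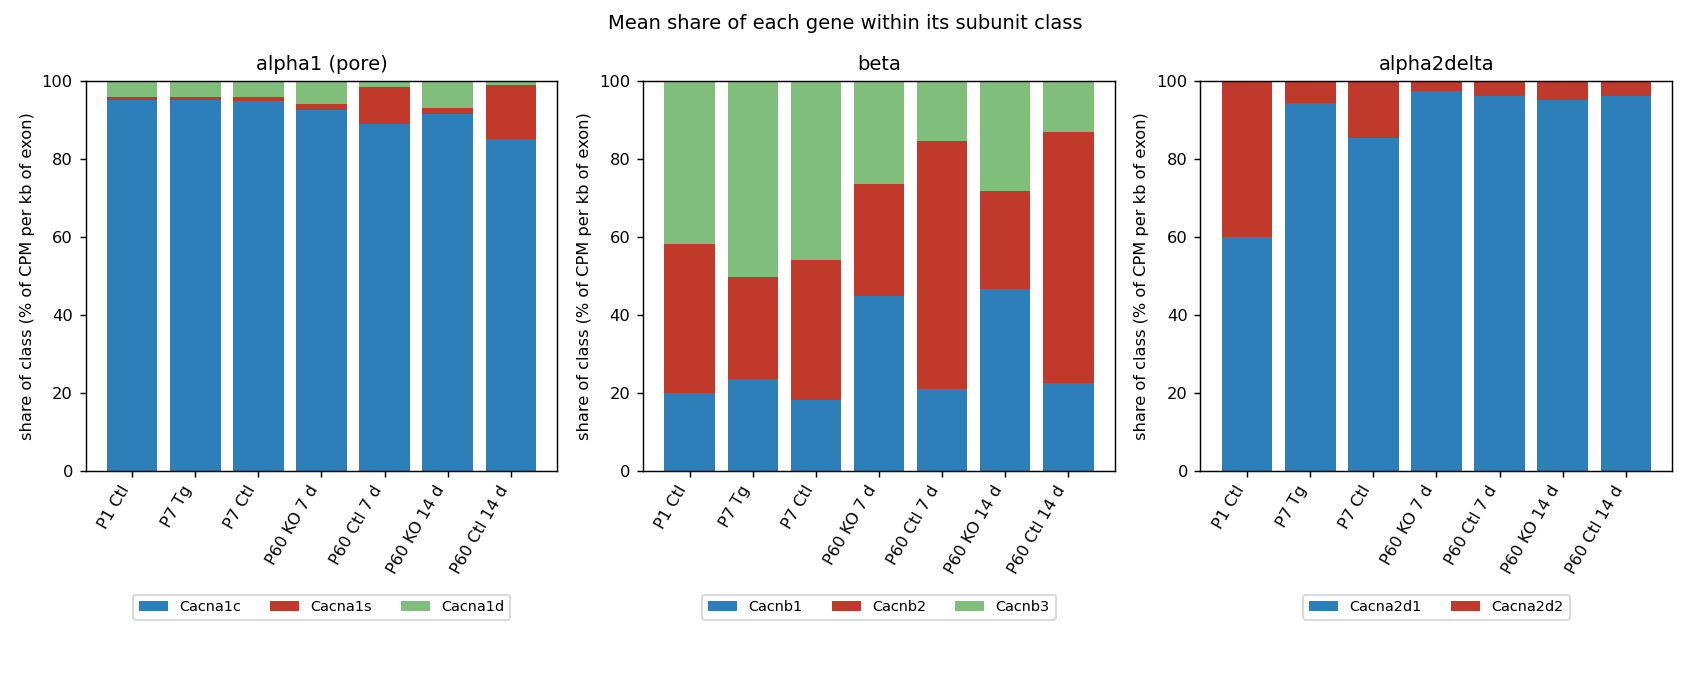
Mean share of each gene within the α1, β and α2δ classes per group, in percent of CPM per kb of exon, as stacked bars from 0 to 100%. Cacnb2 is 63.6% and 64.5% of the β class in the P60 controls and 28.9% and 25.2% in the libraries labelled KO.

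**Figure D4:**
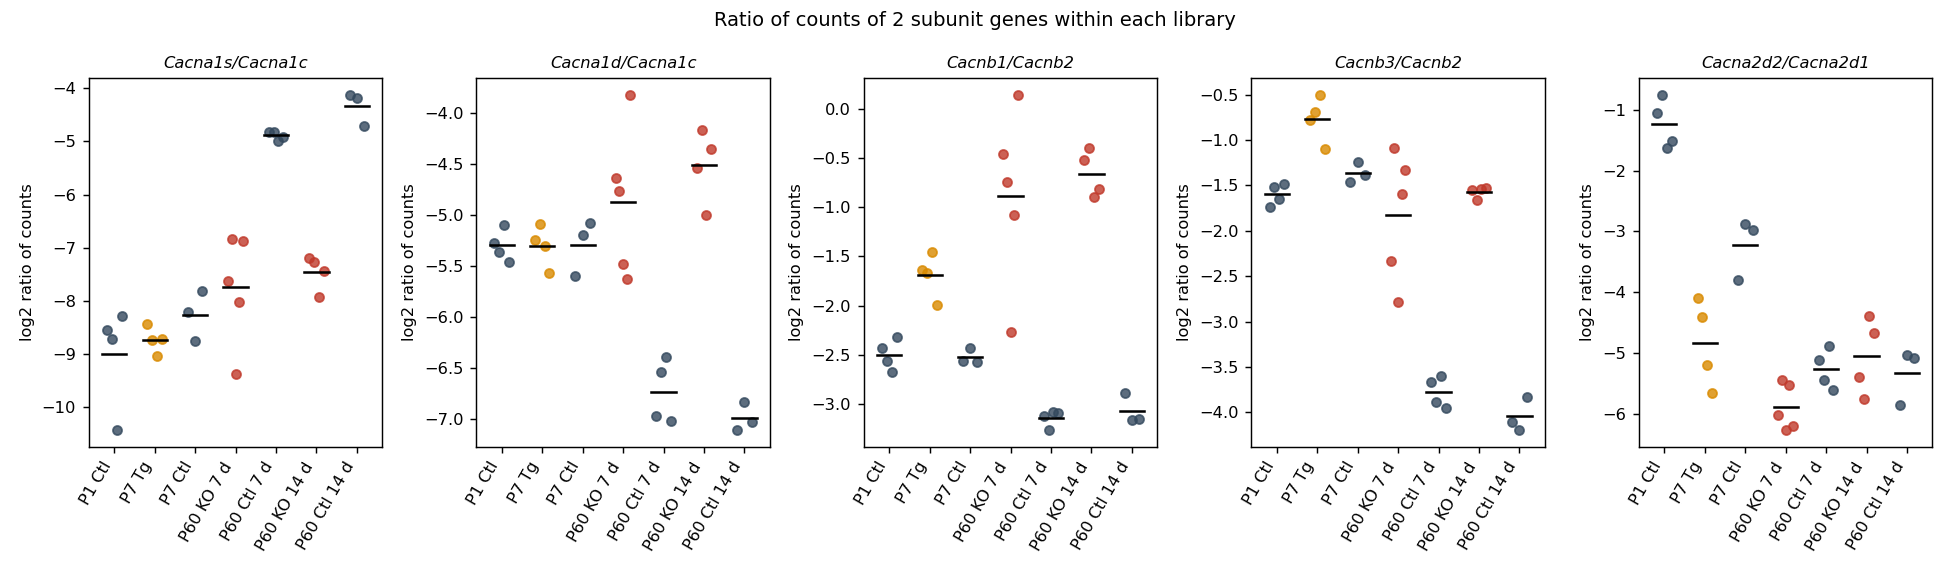
Log2 ratio of counts of 2 subunit genes within each library, by group; points are libraries and bars are group means. Cacnb1/Cacnb2 averages −0.88 and −0.66 in the libraries labelled KO at 7 and 14 days, and −3.14 and −3.07 in their controls.

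Markers of other cell types moved with these groups. The 12 cardiomyocyte markers summed to 25840 to 53410 CPM in libraries labelled KO at 7 days, against 76540 to 82380 CPM in controls, and 7 of the 12 were called lower and 0 higher. They summed to 55930 to 65130 CPM in libraries labelled KO at 14 days, against 80340 to 85740 CPM in controls, with 7 lower and 2 higher. The median log2 fold change of these markers was −0.85 at 7 days and −0.52 at 14 days. That of the 8 subunit genes was −0.88 and −0.96. Libraries 1 and 5 labelled KO at 7 days had the lowest sums, 34360 and 25840 CPM. Without these 2 libraries 6 of the 8 subunit genes passed at 7 days, where 7964 of all 15115 tested genes did (edgeR). Cacna1d (adjusted p = 0.0557) and Cacnb2 (adjusted p = 0.0644) did not pass (edgeR). All 12 markers had counts in every group.

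The 10 fibroblast markers summed to 5454 to 12450 CPM in libraries labelled KO at 7 days, against 3066 to 3792 CPM in controls, with 6 higher and 1 lower. At 14 days they summed to 7171 to 8275 CPM in libraries labelled KO, against 3892 to 4314 CPM in controls, with 8 higher and 1 lower. The 12 macrophage and leukocyte markers summed to 1042 to 1470 CPM in libraries labelled KO at 7 days, against 381 to 441 CPM in controls, with 9 of 10 tested higher. At 14 days those sums were 638 to 909 CPM in libraries labelled KO, against 316 to 478 CPM in controls, with all 10 tested higher. The 10 atrial markers summed to 403 to 2893 CPM in libraries labelled KO at 7 days, against 635 to 819 CPM in controls, and to 3724 to 4580 CPM in those labelled KO at 14 days, against 692 to 791 CPM in controls. Of 9 tested, 1 was higher and 3 lower at 7 days, and 3 were higher and 2 lower at 14 days. The natriuretic peptide gene Nppa rose (log2 fold change 4.16 at 7 days), while Sln, a calcium pump inhibitor (−1.34), and the potassium channel Kcnk3 (−1.33) fell. Of 10 endothelial markers 6 were lower at 7 days and 5 at 14 days, and of 10 smooth muscle and pericyte markers 2 were higher and 5 lower at 7 days and 2 higher and 3 lower at 14 days. Of 12 neuron and glia markers 5 were tested, with 1 higher and 1 lower at 7 days and 1 higher and 2 lower at 14 days. The 12 pacemaker and conduction markers summed to 118.5 to 160 CPM in libraries labelled KO at 7 days, against 162.5 to 191 CPM in controls. At 14 days they summed to 124 to 181 CPM, against 140 to 207 CPM in controls. Of 10 tested at 7 days 2 were higher and 3 lower, and of 11 at 14 days 2 were higher and 2 lower. The part of these cell types in the values of the subunit genes, Cacna1d included, was not tested.

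Skeletal muscle markers went both ways at 7 days, while their summed level was higher. The 22 of them summed to 45.4 to 191 CPM in libraries labelled KO at 7 days, against 20.6 to 29.9 CPM in controls, and to 56.9 to 106 CPM in those labelled KO at 14 days, against 22.5 to 26.3 CPM in controls. Of 8 tested markers, 4 were called higher and 2 lower at 7 days, and 4 higher and 0 lower at 14 days. The fast skeletal troponins Tnnt3 (log2 fold change 7.07 at 7 days and 6.75 at 14 days) and Tnni2 (2.35 and 1.14) and the skeletal ryanodine receptor Ryr1 (3.92 and 3.17) rose. The 2 that fell at 7 days, the direction of Cacna1s, were Neb, the giant thin filament protein nebulin (−1.01, adjusted p = 0.014), and Atp2a1, the calcium pump of fast skeletal muscle (−0.98, adjusted p = 0.0143, edgeR). Myh4, the fast skeletal myosin, and Pax7, the satellite cell factor, had 0 counts in every library labelled KO, and Myod1 had 0 in those of 14 days and up to 46 in those of 7 days. The part of these markers in the level of Cacnb1 was not tested.

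In the Tg libraries at P7, 6 of the 8 genes passed the test, 1 higher and 5 lower, where 30.7% of all tested genes did (14.9% higher, 15.8% lower). The median log2 fold change of the 8 was −0.44, beside −0.00 over all tested genes. Cacna1c read 227, 222, 208 and 224 CPM in Tg libraries, against 300, 325 and 270 CPM in controls, without overlap (log2 fold change −0.44 ± 0.06, adjusted p = 0.000208, edgeR). Cacnb2 read 57.7, 57.2, 51.5 and 65.7 CPM in Tg libraries, against 83.7, 82.4 and 85.0 CPM in controls (−0.53 ± 0.07, adjusted p = 7.5e-05, edgeR). Cacna1c and Cacnb2 were each lower in every Tg library than in any control, while Cacna2d1, the main α2δ gene of ventricle, was not called (values below). Cacnb1 read 18.5, 18.02, 18.9 and 16.5 CPM in Tg libraries, against 14.2, 15.3 and 14.3 CPM in controls (0.30 ± 0.07, adjusted p = 0.00557, edgeR). Cacna2d2 read 4.57, 3.91, 2.29 and 1.70 CPM in Tg libraries, against 5.78, 9.83 and 9.90 CPM in controls (−1.45 ± 0.27, adjusted p = 0.00134, edgeR). Its Tg libraries all lay below the controls, and 0.522% of tested genes had a lower log2 fold change.

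The low pore genes were called lower with less margin. Cacna1s read 0.653, 0.524, 0.393 and 0.530 CPM in Tg libraries, against 1.02, 0.757 and 1.19 CPM in controls, from 59 and 85 counts (−0.90 ± 0.26, adjusted p = 0.0181, edgeR). Cacna1d read 5.98, 6.53, 5.26 and 4.70 CPM in Tg libraries, against 6.17, 8.87 and 8.001 CPM in controls, with overlap (−0.45 ± 0.14, adjusted p = 0.0289, edgeR). Leaving out control 1 or 3 ended the call of Cacna1s (adjusted p up to 0.0884), and leaving out Tg library 3 or 4 or control 2 or 3 ended that of Cacna1d (up to 0.145, edgeR). Cacnb3 (0.06 ± 0.07, adjusted p = 0.517) and Cacna2d1 (0.10 ± 0.05, adjusted p = 0.171) did not pass (edgeR).

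When the spread was estimated over all 27 libraries in a single fit, 1 of the 8 genes, Cacna2d2, remained called in the Tg comparison, where the count over all genes was 973 in place of 4878. Ratios within a library gave Cacnb1/Cacnb2 a log2 difference of 0.83, Cacnb3/Cacnb2 one of 0.59 and Cacna2d2/Cacna2d1 one of −1.62. None of these 3 overlapped between Tg and control libraries (exact permutation p = 0.0571, the smallest possible, adjusted p = 0.0745). Cacna1s/Cacna1c (−0.48) and Cacna1d/Cacna1c (−0.01) overlapped (exact permutation p = 0.229 and 0.857, adjusted p = 0.274 and 0.918). The macrophage and leukocyte markers summed to 134 to 179 CPM in Tg libraries, against 81.4 to 108 CPM in controls, with 8 of 10 tested called higher. Markers of pacemaker and conduction cells summed to 189 to 215 CPM in Tg libraries, against 355 to 378 CPM in controls, with 7 of 11 lower. Skeletal muscle markers summed to 57.3 to 79.1 CPM in Tg libraries, against 35.3 to 44.8 CPM in controls, with 1 of 7 tested called higher and 0 lower. Fibroblast markers summed to 7824 to 9164 CPM in Tg libraries, against 6423 to 7495 CPM in controls, with 6 of 10 higher and 0 lower. The part of these markers in the subunit values, that of Cacnb1 included, was not tested.

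No library is shared among the KO comparison of 7 days, that of 14 days and the Tg comparison. Of the 8 genes, 5 were called in the same direction in all of them: Cacnb1 higher, and Cacna1c, Cacna1s, Cacnb2 and Cacna2d2 lower. Of 14333 genes tested in all, 1248 (8.71%) were called in the same direction throughout, 4.17% higher and 4.54% lower. Leaving out some single libraries ended the calls of Cacnb2 at 7 days, Cacna2d2 at 14 days and Cacna1s in Tg libraries (adjusted p up to 0.0816, 0.135 and 0.0884, edgeR). In the single fit of 27 libraries Cacna2d2 alone was called for Tg, and it was not called at 14 days (adjusted p = 0.0834, edgeR). No member was then called in all the comparisons. Cacna1d differed in sign, higher at 7 days in libraries labelled KO and lower in Tg libraries.

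Control libraries were also compared between ages. Those of P60 carry times after knockout and the younger ones do not, so age cannot be told apart from experiment or treatment. From P1 to P7, 5 of the 8 genes passed, 4 higher and 1 lower at P7, where 23.5% of all genes did (12.3% higher, 11.2% lower). From P7 to P60, 6 passed, 2 higher and 4 lower at P60, where 69.3% of all genes did (33.3% higher, 36% lower). Between P60 and P1 directly, 6 passed, 3 higher and 3 lower at P60, beside 73.7% of all genes (35.1% higher, 38.6% lower). These comparisons share control libraries and an estimate of the spread. Cell type markers moved with age as well. Cardiomyocyte markers summed to 43510 to 51440 CPM at P1, 53420 to 54620 CPM at P7 and 76540 to 85740 CPM at P60. Fibroblast markers summed to 3108 to 4773 CPM at P1, 6423 to 7495 CPM at P7 and 3066 to 4314 CPM at P60. Macrophage and leukocyte markers summed to 55.8 to 83.6 CPM at P1, 81.4 to 108 CPM at P7 and 316 to 478 CPM at P60. Pacemaker and conduction markers summed to 351 to 418 CPM at P1, 355 to 378 CPM at P7 and 140 to 207 CPM at P60. The part of all these markers in the age changes of the subunit genes was not tested.

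Cacna1s was low until after the first week. It read 0.950, 0.716, 0.288 and 1.19 CPM at P1, then 1.02, 0.757 and 1.19 CPM at P7, and 11.0 to 17.4 CPM in the 7 controls of P60. The P1 and P7 values overlapped (log2 fold change of P7 over P1 0.34 ± 0.31, adjusted p = 0.486, edgeR), and the P60 values lay far above both (3.77 ± 0.27 over P7, adjusted p = 1.77e-08, and 4.11 ± 0.25 over P1, adjusted p = 1.28e-09, edgeR). In the order of group means the libraries labelled KO at 7 days stood next to the P1 controls, 0.703 ± 0.277 and 0.786 ± 0.384 CPM (SD, n = 5 and 4), with overlap. The 14-day P60 controls lay above the 7-day ones without overlap, at 13.2 to 17.4 and 11.0 to 12.8 CPM.

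Cacna1c did not pass between the control ages with TMM scaling. It averaged 357 ± 40 CPM at P1 (SD, n = 4), 298 ± 28 CPM at P7 (n = 3), 348 ± 25 CPM in the 7-day (n = 4) and 317 ± 28 CPM in the 14-day P60 controls (n = 3). With TMM those 4 means were the highest of the 7 groups, neighbours in the order overlapped, and the P7 controls did not overlap the Tg libraries below them. With total count scaling the Tg mean, 253 CPM, stood above that of the 14-day P60 controls, 240.5 CPM. Relative to P7, P60 had a log2 fold change of 0.15 ± 0.10 with TMM (adjusted p = 0.169, edgeR). With total count scaling, which put the median over all genes at −0.65, it was −0.45 (adjusted p = 0.00057, edgeR). That scaling also called Cacna1c lower at P60 than at P1 (−0.77, adjusted p = 9.78e-07, against −0.11 ± 0.09 with TMM) and lower at P7 than at P1 (−0.32, adjusted p = 0.0489, edgeR). Without P1 library 2, Cacna1c passed as lower at P7 (−0.33, adjusted p = 0.0221) and at P60 (−0.19, adjusted p = 0.041) relative to P1 (edgeR). Cacna1d declined with age, averaging 9.16 ± 1.82 CPM at P1 and 7.68 ± 1.38 CPM at P7, and 3.30 ± 0.62 and 2.50 ± 0.36 CPM in the 7-day and 14-day P60 controls (SD, n = 4, 3, 4 and 3). The fall was called from P7 to P60 (−1.42 ± 0.17, adjusted p = 3.45e-06, edgeR) and not from P1 to P7 (−0.25 ± 0.18, adjusted p = 0.355, edgeR).

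The β genes differed in their course with age. Cacnb3 read 17.7 to 22.7 CPM at P1, 30.4 to 34.9 CPM at P7 and 4.61 to 7.45 CPM at P60. It rose at P7 (0.69 ± 0.13, adjusted p = 0.00169) and fell at P60 (−2.40 ± 0.12 relative to P7, adjusted p = 4.62e-10, edgeR), and no ages overlapped. Per kb of exon it was the largest β gene in both neonatal control groups, 41.8% ± 1.9 of the class at P1 and 46.0% ± 1.5 at P7 (SD, n = 4 and 3). In the 7-day and 14-day P60 controls it was 15.3% ± 1.5 and 12.96% ± 1.7. In CPM, without division by exon length, Cacnb2 had a higher mean than Cacnb3 at P1 (60.8 against 20.2) and at P7 (83.7 against 32.6). Cacnb2 rose at P7 (0.46 ± 0.10, adjusted p = 0.00321) and did not pass from P7 to P60 (0.13 ± 0.09, adjusted p = 0.193, edgeR). It passed as higher at P60 without P60 control 5 (0.19, adjusted p = 0.0372), and as lower with total count scaling (−0.47, adjusted p = 0.000529, edgeR), where the median over all genes was −0.65. Its P60 over P1 value was 0.60 ± 0.08 (adjusted p = 9.72e-06), but −0.06 with total count scaling, where the median over all genes stood at −0.71. Cacnb1 rose at P7 (0.43 ± 0.10, adjusted p = 0.00673) and fell at P60 (−0.46 ± 0.09, adjusted p = 0.000431), and P60 over P1 did not pass (−0.03 ± 0.09, adjusted p = 0.799, edgeR) except with total count scaling (−0.68, adjusted p = 5.12e-06, edgeR).

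The α2δ genes moved apart with age. Cacna2d1 averaged 65.1 ± 5.9 CPM at P1 and 76.8 ± 4.3 CPM at P7, and 211 ± 13 and 204 ± 16 CPM in the 7-day and 14-day P60 controls. The step at P60 was called (1.43 ± 0.08, adjusted p = 9.14e-10, edgeR), and the small one at P7 (0.24 ± 0.08, adjusted p = 0.04) was lost without any of several libraries, with adjusted p up to 0.156 (edgeR). Cacna2d2 read 35.5, 37.8, 20.7 and 20.8 CPM at P1, 5.78, 9.83 and 9.90 CPM at P7 and 3.75 to 7.21 CPM at P60. Libraries 1 and 2 of P1 were well above libraries 3 and 4, and all 4 were above every P7 library (−1.75 ± 0.27, adjusted p = 0.000346, edgeR). The atrial markers summed to 1101 and 1137 CPM in P1 libraries 1 and 2, and to 884 and 997 CPM in libraries 3 and 4, and their part in Cacna2d2 was not tested. The further fall at P60 was smaller (−0.65 ± 0.25, adjusted p = 0.0279) and was lost without P7 control 2 or 3 or P60 control 5, or with either P60 control group alone (adjusted p from 0.0658 to 0.122, edgeR). Cacna2d2 took 40.0% ± 6.7 of the α2δ class at P1, 14.8% ± 4.0 at P7 and 3.97% ± 0.87 in the 7-day P60 controls.

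All 5 ratios separated P60 from P1 controls without overlap (exact permutation p = 0.00606, adjusted p = 0.0357), with log2 differences of 4.35 for Cacna1s/Cacna1c, −1.55 for Cacna1d/Cacna1c, −0.61 for Cacnb1/Cacnb2, −2.30 for Cacnb3/Cacnb2 and −4.06 for Cacna2d2/Cacna2d1. They also separated P60 from P7 (exact permutation p = 0.0167, adjusted p = 0.0357). Of all genes, 73.7% were called between P60 and P1 and 69.3% between P60 and P7. The share of other gene pairs that would separate was not computed, so these counts only describe the 5 ratios. From P1 to P7, Cacnb3/Cacnb2 (0.24) and Cacna2d2/Cacna2d1 (−1.98) did not overlap (exact permutation p = 0.0571, the smallest possible, adjusted p = 0.0745).

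Over the 48 neighbouring pairs in the orders of group means of the 8 genes, 37 overlapped in their library values. The same share over all genes was not computed, so this count only describes the 8. The highest group mean was that of the P1 controls for Cacna1c, Cacna1d and Cacna2d2, that of the Tg libraries for Cacnb3, and that of the 7-day libraries labelled KO for Cacnb1. It was that of P60 controls for Cacna1s, Cacnb2 and Cacna2d1. These orders are those with TMM. With total count scaling the highest mean of Cacnb2 was that of the P7 controls, 97.6 CPM. The 7-day and 14-day P60 controls then averaged 69.6 and 71.7 CPM. Under that scaling 30 group means of the 8 genes moved by at least their SD, and 26 did not. The lowest mean of Cacna1c, Cacna1s and Cacnb2 was that of the 14-day libraries labelled KO.

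Over the 27 libraries, the genes most like Cacna1c in log2 CPM among 10770 searched were Fhod3, a sarcomere formin (Pearson r = 0.963), Cluh, which binds mRNAs of mitochondrial proteins (0.932), Pfas, a purine synthesis enzyme (0.916), Fgf13, a regulator of sodium channels (0.915), and Phb2, a mitochondrial prohibitin (0.912). For Cacna1s they included the mitochondrial thioredoxin Txn2 (0.974), the aminotransferase Got2 (0.968), the isocitrate dehydrogenase subunit Idh3b (0.963) and the complex I subunit Ndufb8 (0.962). Among the members, r was 0.869 between Cacna1c and Cacnb2 and −0.837 between Cacna1c and Cacnb1. These values are descriptions, since the 27 libraries fall into 7 groups whose means they mostly follow.

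Genes around the channel were read from 3 lists. Their counts of called genes stand beside the shares called over all tested genes. Those shares were 50.7% at 7 days, 44.2% at 14 days, 30.7% in Tg libraries and 73.7% between P60 and P1. Of 18 other subunits of voltage-gated calcium channels, 7 were tested at 7 days, of which 1 rose and 0 fell in libraries labelled KO, and at 14 days 1 rose and 1 fell. The γ subunit gene Cacng7 rose at both times (log2 fold change 0.52 ± 0.15 and 0.45 ± 0.12, adjusted p = 0.0127 and 0.0122), and Cacng6, a γ subunit gene of heart, fell at 14 days (−1.23 ± 0.33, adjusted p = 0.0115, edgeR). In the Tg libraries 1 of 8 rose and 5 fell, among them Cacng6 (−4.04 ± 0.31, adjusted p = 1.4e-06) and the T-type pore Cacna1g (−1.38 ± 0.08, adjusted p = 2.73e-07, edgeR). From P1 to P60, 2 of 9 rose and 6 fell, with the T-type pore Cacna1h lowest (−3.51 ± 0.40, adjusted p = 1.43e-06, edgeR). The median log2 fold change of this list was −0.16 at 7 days, 0.01 at 14 days, −0.53 in Tg libraries and −1.39 between P60 and P1.

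Of 31 regulators of the channel, 30 were tested. At 7 days 4 rose and 7 fell in libraries labelled KO, the largest being Fgf13 (−1.73 ± 0.33, adjusted p = 0.00147), the kinase anchor Akap7 (−1.01 ± 0.17, adjusted p = 0.000649) and the kinase Camk2b (−0.78 ± 0.29, adjusted p = 0.048, edgeR). At 14 days 5 rose and 7 fell, with Fgf13 (−2.25 ± 0.11, adjusted p = 5.71e-07) and the anchor Akap6 (−1.01 ± 0.10, adjusted p = 2.53e-05) lower and Gem, a small GTPase that inhibits the channel, higher (1.20 ± 0.33, adjusted p = 0.0128, edgeR). In the Tg libraries 3 rose and 7 fell, among them Fgf13 (−0.47 ± 0.08, adjusted p = 0.000825) and the β1 adrenergic receptor Adrb1 (−0.46 ± 0.07, adjusted p = 0.00023, edgeR). From P1 to P60, 11 rose and 11 fell, among them Camk2b higher at P60 (1.96 ± 0.21, adjusted p = 8.02e-07, edgeR). The median log2 fold change of the list was −0.16 at 7 days, −0.01 at 14 days and −0.03 in Tg libraries.

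Of 22 genes of the junction between cell membrane and sarcoplasmic reticulum, 19 were tested at 7 days, where 6 rose and 9 fell in libraries labelled KO, and 18 at 14 days, where 3 rose and 10 fell. Ryr2, the cardiac release channel that Cacna1c triggers, fell at 7 days (−1.33 ± 0.32, adjusted p = 0.0053) and at 14 days (−2.18 ± 0.19, adjusted p = 1.03e-05, edgeR). Ryr1 and Jsrp1, which belong to the skeletal muscle junction with Cacna1s, rose: Ryr1 by 3.92 ± 1.11 at 7 days and 3.17 ± 0.74 at 14 days (adjusted p = 0.0129 and 0.00602) and Jsrp1 by 2.50 ± 0.48 and 2.08 ± 0.36 (adjusted p = 0.00148 and 0.000968, edgeR) on the log2 scale. Ryr1 averaged 8.62 ± 10.3 CPM in libraries labelled KO at 7 days (SD, n = 5), a spread above its mean. Both rose where Cacna1s fell. In the Tg libraries 4 of 20 rose and 5 fell, with Casq1, the skeletal calsequestrin, highest (0.93 ± 0.11, adjusted p = 6.04e-05, edgeR). From P1 to P60, 12 of 21 rose and 8 fell, among them Tcap, a Z-disc protein, higher (3.86 ± 0.18, adjusted p = 9.02e-11, edgeR). The median log2 fold change of the list was −0.42 at 7 days, −0.40 at 14 days and −0.03 in Tg libraries.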

How the data were processed

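Ventricle RNA was sequenced by BGI on its DNBseq platform after TRIzol and column extraction, per the labels' protocols. The deposited table holds raw counts, unscaled integers made by the authors. Per the submitters' processing notes, STAR, featureCounts, DESeq2, Salmon and GRCm38 (mm10) were involved, with no roles or versions given. Symbols and union exon lengths came from GENCODE M21, which held 55141 of the 55487 identifiers and lacked 346.

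The test was edgeR 4.0.16 under R 4.3.3 (filterByExpr, TMM, glmQLFit and glmQLFTest), with Benjamini-Hochberg adjustment over all genes tested and a threshold of 0.05. Each KO and Tg group was fitted with its own controls only, the control ages in 1 fit of 14 libraries, and the interaction over 16. Each SE was derived from the fold change and its F statistic. Ratios were tested with scipy 1.17.1 by two-sided exact permutation. The code was tested on simulated data. Pairs of libraries within a group differed beyond sampling noise (chi-square per degree of freedom 6.34 to 147 over 40 pairs).

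The members and the 12 lists (181 entries) were chosen with earlier results of these data known. Named genes are all members, Mbnl1 and Esr1, at most the 3 largest called changes per list and comparison with a mean of at least 1 CPM, and the 5 genes most like Cacna1c and Cacna1s with a mean of at least 5 CPM. The skeletal muscle markers Myh4, Pax7, Myod1, Neb and Atp2a1 were named after their values were seen. Some genes that the rule names are not reported here. Alternatives were total count scaling, no filter, DESeq2 1.42.0, a single fit of 27 libraries, a replicate block, either P60 control group alone, and leaving out libraries.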

Additional observations from a re-analysis of the deposited data

Results flagged for a closer look

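Among 40 sets of values, 1 for each member gene in each group of 4 or more libraries, a single library stood apart. Cacnb3 in library 4 of the 7-day P60 controls read 5.50 CPM, against 6.77 to 6.97 CPM in the other 3 libraries, so its gap to the nearest filled most of the group's range. It lay further from the libraries labelled KO, which read 8.73 to 18.3 CPM. Leaving out each library in turn, this control included, gave Cacnb3 log2 fold changes of 0.81 to 1.09 at 7 days, with adjusted p up to 0.0155 (edgeR).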

How the results depend on the processing

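Total count scaling turned the direction of Cacna1c (−0.45) and Cacnb2 (−0.47) from P7 to P60 and of Cacnb2 from P1 to P60 (−0.061), where the median of all genes stood at −0.65 and −0.71. It also split calls into 2352 higher and 10713 lower from P7 to P60 and 2665 higher and 11121 lower from P1 to P60, against 5456 higher and 5895 lower, and 5753 higher and 6328 lower, with TMM. Of 17261 genes, a single fit of 27 libraries called 973 in the Tg comparison, 1 member among them, and 2884 from P1 to P7, 3 members among them. It ended the calls of Cacna2d2 at 14 days (adjusted p = 0.0834) and from P7 to P60 (0.0655, edgeR). No filter ended those of Cacna1d at 7 days (0.056) and Cacna2d1 from P1 to P7 (0.0926). Interaction calls over all genes were 2 with total count scaling, 13 without the filter, 147 with DESeq2 and 3 without libraries 1 and 5 labelled KO at 7 days. Of the 30 ratio tests 14 passed, and 5 did without those 2 libraries. Leaving out single libraries gave 0 to 21 interaction calls, 2508 to 4492 genes from P1 to P7 (2536 and 2508 without P7 control 1 and 2), and 0 to 14 ratio tests passed, since fewer libraries raise the smallest exact p. Members called ranged from 6 to 8 at 7 days, 6 to 7 at 14 days, 4 to 6 for Tg, 4 to 5 from P1 to P7, 5 to 6 from P7 to P60 and 6 to 7 from P1 to P60. Beside them, calls over all genes ranged from 6685 to 7610 at 7 days, 5132 to 7256 at 14 days and 3717 to 4486 for Tg. They ranged from 10417 to 11615 from P7 to P60 and from 11470 to 12202 from P1 to P60.

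The labels do not say whether replicate numbers pair the samples. Deviations from group means correlated between −0.449 and 0.213 for same-numbered libraries. Differently numbered libraries were not compared, so this range cannot show whether samples were paired. With the number as a block, 8 members passed at 7 days, 7 at 14 days and 4 for Tg, where Cacna1s and Cacna1d were lost, and the gene counts were 6589, 6163 and 3830. It also lost Cacna2d1 from P1 to P7 (adjusted p = 0.0528) and Cacna2d2 from P7 to P60 (0.182). DESeq2 lost Cacna1s for Tg (adjusted p = 0.0563) and gained Cacna1c from P1 to P7 (0.0496). The low counts of Cacna1s limit its precision outside the P60 controls.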
